A study of Homo sapiens with 2 samples.

Results

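The cells described here are the PC9 cells with the highest share of transcripts from 6 genes of DNA replication and the S phase of the cell cycle. A barcode was kept when it held at least 1000 gene UMIs (unique molecular identifiers, each standing for 1 captured RNA molecule), at least 500 genes and at most 20% UMIs of mitochondrially encoded genes. Each kept cell received a score, the summed UMIs of CLSPN, RRM2, HELLS, ATAD2, BRCA1 and ORC6 divided by its gene UMIs. The 1015 cells in the top 10% of the score, of 10142 kept cells, are called S-score cells below. The 5071 cells in the bottom 50% are called low-score cells, and 4056 cells lie between. The score is continuous, so S-score cells are a range of it and not a separate type. On the scale of CPM, UMIs scaled to 1000000 gene UMIs, the lowest S-score cell had a score of 598.9 and the highest cell outside had 597.8, and the tenth cells on either side had 601 and 593. In all, 341 cells lay within 10% of that limit, 154 of them S-score cells.

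S phase is the part of the cell cycle in which the genome is copied once. Origins are licensed beforehand by loading the MCM helicase, and in S phase the helicase is switched on by CDC45 and the GINS complex, polymerases copy both strands, and new histones and cohesin are laid down behind the fork. The genes for this machinery are controlled largely by the E2F transcription factors, which pocket proteins of the RB family hold in check until late G1. PC9 is a human line from a lung adenocarcinoma whose EGFR receptor carries an activating mutation, and its cells cycle without synchrony in culture.

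The series held 1 pooled culture of PC9 cells with 2 libraries of the same cells, a droplet-based 3' gene expression library and a direct capture of sgRNAs (the guide RNAs of CRISPR), which shared 1 matrix of 10847 barcodes. All cells had been exposed to lentivirus that infected about 40% of them, in polybrene (8 ug/ml), and then to puromycin (1 ug/ml). The labels name day 8 for the experiment and day 7 for a first harvest, and speak of knockout as well as of dCas9 and knockdown, so neither the day nor the kind of perturbation is settled here. Of the kept cells, 5556 were given to 1 of 36 sgRNAs, with targets ATF4 (859 cells), CTCF (1182), CTNNB1 (1552), JUN (836), MYC (94) and PGAM1 (333), or to 4 non-targeting sgRNAs (700), the controls. The other 4586 kept cells could not be given to a single sgRNA. The labels name 4 targets where the matrix holds these 6.

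S-score cells had a median of 14331 gene UMIs, 3862 genes and 10.2% mitochondrial UMIs, against 11059 UMIs, 3107 genes and 10.9% in low-score cells. With every cell thinned to 5000 UMIs, the median was 2019 genes in 983 S-score cells and 1875 genes in 4904 low-score cells. UMIs of sgRNAs against 2 or more targets, a sign of doublets or double infection, were found in 5.81% of S-score cells (exact 95% binomial interval 4.45 to 7.43%), 13.6% of the cells between and 8.16% of low-score cells (7.42 to 8.95%). Intervals here and below cover counting error only. The part of depth and doublets in the differences below was not tested. Counts of differing genes with thinned cells and without cells of 2 or more targets are given below.

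The score rested on several genes at once in most S-score cells. All 6 score genes were detected in 324 of them (31.9%), 5 in 408 (40.2%) and 4 in 200 (19.7%), whereas 18 cells rested on 1 score gene and 17 on a single UMI. The median S-score cell held 12 score UMIs. CLSPN encodes claspin, which relays the replication checkpoint, and had 118 CPM (UMIs summed over the cells) in S-score cells against 1.38 CPM in low-score cells. RRM2, the small subunit of the ribonucleotide reductase that makes deoxyribonucleotides, had 173 against 2.85 CPM. These values were used to choose the cells and support nothing by themselves. They were 159 against 5.74 CPM for HELLS, a chromatin remodeller, 205 against 5.68 CPM for ATAD2, a bromodomain protein, 95.2 against 3.53 CPM for BRCA1, a recombination repair protein, and 116 against 3.73 CPM for ORC6, a subunit of the origin recognition complex.

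The score was also split, so that the remaining score genes were not used in choosing the cells. All 6 genes had been chosen together with earlier results of these data known. The split therefore describes how they vary together and supports nothing by itself. When the top 10% of cells was chosen by CLSPN, RRM2 and HELLS alone, the remaining 3 genes were 9.24-fold (ATAD2), 7.31-fold (BRCA1) and 6.47-fold (ORC6) higher than in the low-score cells of that score. When ATAD2, BRCA1 and ORC6 did the choosing, CLSPN was 15.4-fold, RRM2 11.9-fold and HELLS 7.52-fold higher. A list of 39 S phase genes was drawn from one in common use for cell cycle scoring, with the score genes left out. It placed 66.6% of S-score cells in its own top 10% and 98.9% above its median. The same shares were 0.197% and 23.1% of low-score cells. DNA synthesis itself was not measured.

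The epithelial identity of the line was present on both sides. KRT18, an epithelial keratin, had 4442 CPM in S-score cells and 4454 CPM in low-score cells, and EPCAM, an epithelial adhesion protein, had 286 and 261 CPM. Markers of cells that should be missing were near 0. The fibroblast list summed to 1.63 CPM in S-score cells and 1.92 CPM in low-score cells, the blood cell list to 1.97 and 2.40 CPM, and the endothelial list to 1.56 and 2.02 CPM.

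Beyond the score genes, S-score cells differed from low-score cells in a broad set of genes, mostly upward. Of 9833 genes with at least 5 CPM over all kept cells, 1113 (11.3%) were at least 1.5-fold higher and 268 (2.73%) at least 1.5-fold lower. At least 4-fold higher were 164 genes and at least 8-fold higher 40, whereas 3 were at least 4-fold lower. The counting interval lay wholly past 1.5-fold for 726 of the higher and 112 of the lower genes. There is 1 culture and 1 library, and the cells were chosen by their transcripts, so this contrast is a description with no test. The median log2 ratio over all genes was 0.0996; when the groups were scaled by the median ratio, 853 genes were higher and 417 lower, so that 67.2% of the genes past the limit were higher, in place of 80.6%. Cells carrying the 6 sgRNA target sets and the control set give 7 sets within the culture, which share the library. All 7 showed the same direction for 787 (70.7%) of the higher and 168 (62.7%) of the lower genes. These shares are of genes already past 1.5-fold, and the share over all 9833 genes is not given here. Overlap between the sets was read for named genes only. Statements of 7 of 7 sets or of no overlap below therefore have no background and are descriptions. With the cells of the control sgRNAs alone, 1725 genes were higher and 1018 lower, and with all other kept cells in place of the low-score cells 654 and 169. With every cell thinned to 5000 UMIs before scoring, 938 were higher and 237 lower, between 1382 and 5423 cells. Without cells of sgRNAs against 2 or more targets the counts were 1089 and 272.

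**Figure D1:**
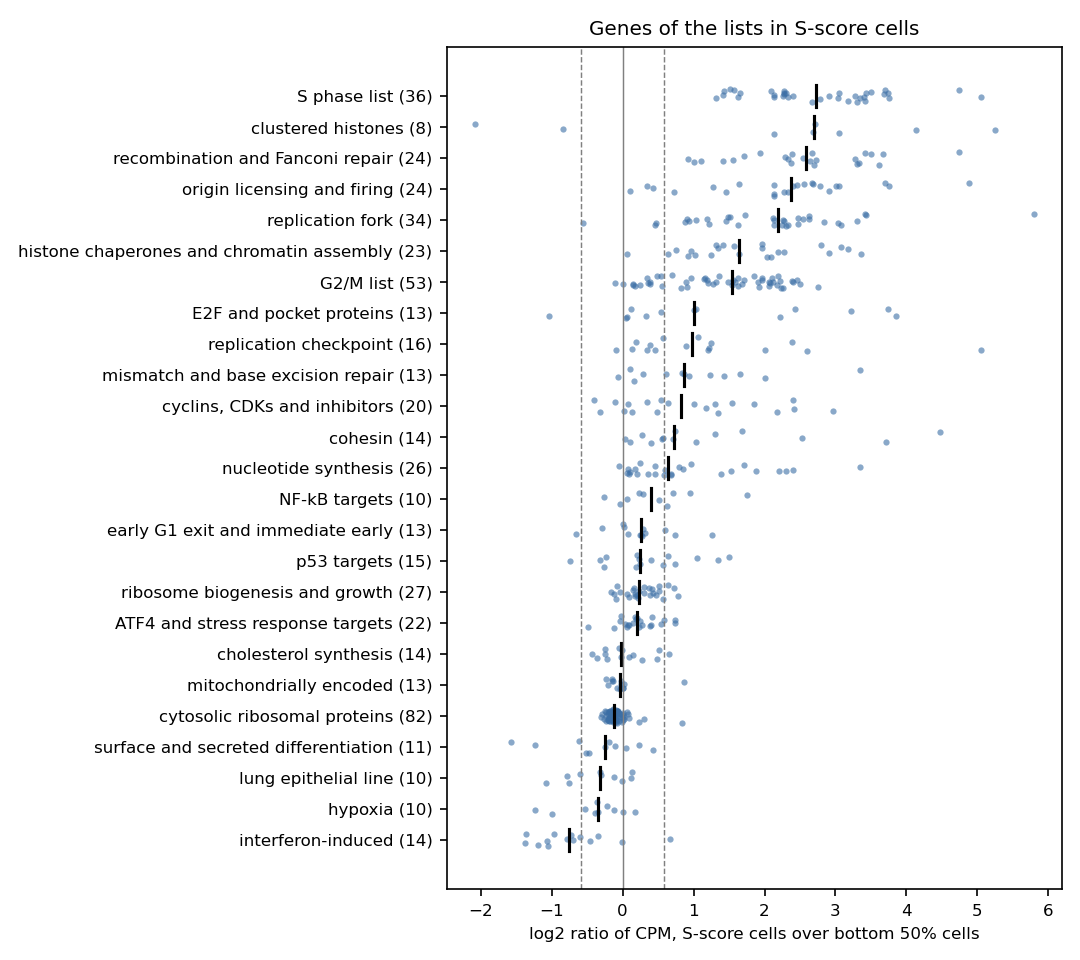
Log2 ratio of CPM in S-score cells over low-score cells (bottom 50% of the score) for each gene with at least 5 CPM in the lists used here, the score genes left out. Each point is 1 gene, the black bar is the list's median, the number of genes is in parentheses, and dashed lines mark 1.5-fold. The lists of replication, recombination and chromatin assembly lie to the right, with medians from 1.64 to 2.59 on the log2 scale, and the interferon-induced list lies furthest left, with a median of -0.75.

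Because the members of this machinery moved together, the DNA just upstream of their start sites was read from RefSeq (GRCh38.p14). The sequences shown are the 100 bases before the start of 5 genes that carry an E2F word, 1 from the score (HELLS) and 4 among the largest increases, written 5' to 3' on the gene's strand with the word in capitals.
HELLS, chr10:94545688-94545787, plus strand: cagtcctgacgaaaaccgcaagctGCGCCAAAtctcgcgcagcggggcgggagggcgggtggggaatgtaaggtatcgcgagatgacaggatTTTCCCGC
PCNA, chr20:5126623-5126722, minus strand: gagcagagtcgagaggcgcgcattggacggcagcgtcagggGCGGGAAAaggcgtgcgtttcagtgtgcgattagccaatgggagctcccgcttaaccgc
TYMS, chr18:657553-657652, plus strand: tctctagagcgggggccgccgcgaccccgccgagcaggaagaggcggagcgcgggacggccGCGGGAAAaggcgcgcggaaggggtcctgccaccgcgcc
GINS2, chr16:85688955-85689054, minus strand: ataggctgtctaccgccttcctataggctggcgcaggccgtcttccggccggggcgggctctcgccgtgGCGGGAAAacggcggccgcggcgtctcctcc
CDCA5, chr11:65084041-65084140, minus strand: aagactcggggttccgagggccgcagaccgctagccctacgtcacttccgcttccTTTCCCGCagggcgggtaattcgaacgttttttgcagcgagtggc
The words searched were TTTCCCGC, TTTGGCGC, TTTCGCGC and TTTGCCGC on both strands, in the 250 bases before and 50 bases after the start. A promoter was found for 7975 of the compared genes. An E2F word was in 40.6% (13 of 32) of the promoters of genes at least 8-fold higher in S-score cells, 27.1% (36 of 133) at 4-fold and 13.3% (122 of 914) at 1.5-fold. The share was 3.17% for genes at least 1.5-fold lower, 4.92% for genes within 1.5-fold and 3.33% over all 27305 RefSeq promoters of this length. In the origin licensing list it was 57.9% (11 of 19), against 6.82% (3 of 44) in the G2/M list. The G2/M list in turn held the CHR word of late cell cycle genes, TTTGAA on either strand, in 70.5% of its promoters, against 9.33% of all compared genes and 15.4% of all RefSeq promoters. The sequence CCAAT on either strand was in 68.8% of the promoters of genes at least 8-fold higher and 36.9% of all compared genes. Neighbouring and divergent genes can share a promoter, and a word is a run of letters, not a site shown to be bound.

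**Figure D2:**
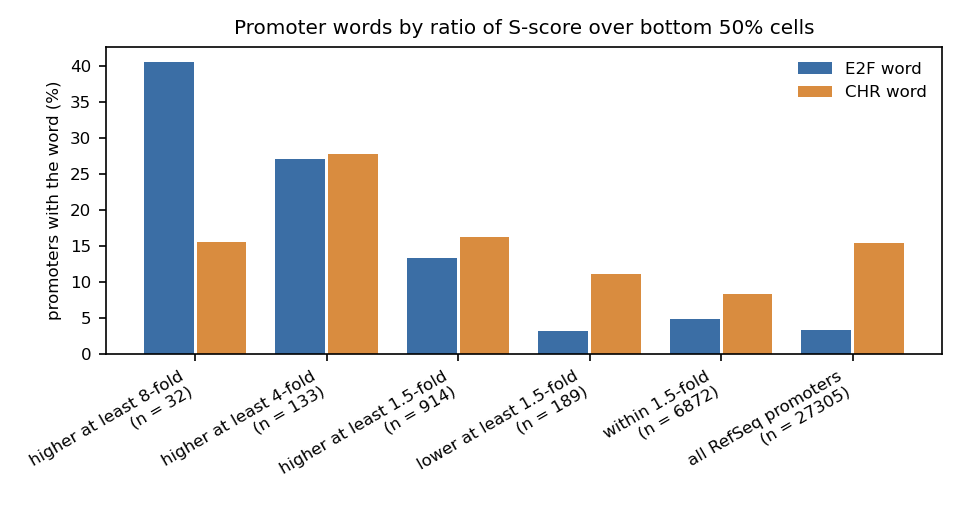
Share of promoters (in percent, from 250 bases before to 50 bases after the start) that hold an E2F word or a CHR word, for genes grouped by their CPM ratio in S-score cells over low-score cells; the classes of higher genes are nested. The E2F share is 40.6% among genes at least 8-fold higher and 3.33% over all RefSeq promoters, whereas the CHR share is highest, at 27.8%, among genes at least 4-fold higher.

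Origin licensing and firing came first among the replication steps. Of 28 listed genes, 24 passed 5 CPM, 21 of these were at least 1.5-fold higher in S-score cells, none was lower, and the median log2 ratio was 2.37. MCM10, which helps to switch on the loaded helicase, led the genes of at least 10 CPM outside the score. FAM111B, HIST1H1B and DTL, chosen here after their values were seen, had larger log2 ratios (5.80, 5.24 and 5.05) at less than 10 CPM over all cells. In the 7 sgRNA sets its lowest, median and highest levels were 39.7, 49.3 and 73.1 CPM in S-score cells, against 0, 1.44 and 2.75 CPM in low-score cells. The groups did not overlap, and over all cells MCM10 was 29.6-fold higher (log2 4.89, interval 4.597 to 5.190). CDC45, a part of the active helicase, was 13.5-fold higher, at 62.0 against 4.59 CPM. CDC6, which loads the helicase at origins, was 13.0-fold higher, at 40.7 against 3.12 CPM, and GINS2, a subunit of the GINS complex, 8.28-fold higher, at 48.3 against 5.84 CPM. The 3 members within 1.5-fold were ORC2, ORC4 and ORC5, subunits of the origin recognition complex, with log2 ratios of 0.35, 0.10 and 0.43. ORC3 of the same complex was at 0.73, past 1.5-fold.

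The genes of the replication fork followed the same pattern, with 31 of 34 compared members higher, none lower and a median log2 ratio of 2.19. PCNA, the sliding clamp that holds polymerases on DNA, had 328, 375 and 401 CPM (lowest, median and highest of the 7 sets) in S-score cells, against 36.0, 44.8 and 47.0 CPM in low-score cells. No set overlapped, and over all cells the ratio was 8.17-fold (log2 3.03, interval 2.96 to 3.10). A PCNA transcript was seen in 80.6% of S-score cells and 19.3% of low-score cells after thinning to 5000 UMIs, and in 94.8% and 36.2% before it. FEN1, the nuclease that trims Okazaki fragments, was 10.8-fold higher, DSCC1, part of the clamp loader of cohesion, 9.85-fold, and WDHD1, which couples helicase and polymerase, 6.18-fold. At the other end lay POLD4, the smallest subunit of DNA polymerase delta, with 197 CPM in S-score cells and 289 CPM in low-score cells, a log2 ratio of -0.55 that is just short of 1.5-fold. POLD1 and POLD3 of the same enzyme were at 1.48 and 2.13. These 3 polymerase subunits and the subunits of the origin recognition complex were picked from their lists after their values were seen.

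In the nucleotide synthesis list 15 of 26 compared members were higher, none was lower, and the median log2 ratio was 0.64. TYMS, thymidylate synthase, was 10.1-fold higher, with 92.1, 104 and 125 CPM (lowest, median and highest of the 7 sets) in S-score cells against 5.68, 10.4 and 12.2 CPM in low-score cells. RRM1, the large subunit of ribonucleotide reductase, was 5.26-fold higher, and TK1, thymidine kinase, 4.59-fold. ATIC of purine synthesis (log2 0.11), DHODH of pyrimidine synthesis (0.07), IMPDH2 of guanine nucleotide synthesis (0.06) and SAMHD1, which breaks deoxyribonucleotides down (0.09), were within 1.5-fold, and were chosen here after their values were seen.

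Histone genes moved both ways. Of 71 clustered histone genes 8 passed 5 CPM, so the rest are not described by these counts. Histone mRNAs of S phase normally end without a poly(A) tail, on which this assay primes, and how much of each one it captures was not measured. HIST1H4C, a histone H4 gene, had 389, 485 and 529 CPM in S-score cells across the 7 sets (lowest, median and highest), against 47.3, 74.4 and 76.4 CPM in low-score cells, and was 6.43-fold higher with no overlap. The linker histone genes HIST1H1D (17.5-fold), HIST1H1E (8.32-fold) and HIST1H1C (log2 2.14) were higher as well. HIST1H2AC, a histone H2A gene of the same cluster, went the other way and was the largest decrease among genes of at least 10 CPM. It had 4.52, 5.83 and 15.4 CPM in S-score cells, against 15.8, 24.5 and 41.7 CPM in low-score cells, 4.23-fold lower (log2 -2.08, interval -2.42 to -1.76) and lower in 7 of 7 sets. HIST3H2A was lower too, at 23.7 against 42.5 CPM (log2 -0.85). HIST3H2A and HIST1H1C were chosen after their values were seen.

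Chromatin assembly and cohesion genes were high alongside most of the histones. In the list of histone chaperones and chromatin assembly, 22 of 23 members were higher and none lower, with a median log2 ratio of 1.64. CHAF1A, the large subunit of the chromatin assembly factor CAF-1, was 8.44-fold higher, and ASF1B, a chaperone of new histones H3 and H4, 10.2-fold. Its paralog ASF1A was the member within 1.5-fold (log2 0.06). In the cohesin list 8 of 14 members were higher and none lower. ESCO2, the acetyltransferase that closes cohesin rings in S phase, had 49.5 CPM in S-score cells and 2.23 CPM in low-score cells (22.2-fold), whereas its paralog ESCO1, which also acts outside S phase, had a log2 ratio of 0.03. CDCA5, known as sororin, which protects cohesion, was 13.1-fold higher. The paralogs were chosen after their values were seen.

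Recombination and Fanconi repair, which act at stalled and broken forks, was, beside the S phase list, a list with all of its compared members higher. All 24 members that passed 5 CPM, of 31 listed, were at least 1.5-fold higher, and the median log2 ratio was 2.59. XRCC2, a recombination protein, was 12.8-fold higher, at 50.3 against 3.95 CPM. BLM, the helicase mutated in Bloom syndrome, was 11.4-fold higher, and BRCA2, which promotes strand exchange, 9.85-fold. Each of these 3 was higher in 7 of 7 sets with no overlap. Mismatch and base excision repair had 9 of 13 members higher and a median of 0.86, among them MSH6 (2.35-fold), of mismatch recognition, and UNG, which removes uracil from DNA (2.69-fold). In the replication checkpoint list 9 of 16 were higher, with CHEK1, its main kinase, 5.21-fold higher and PKMYT1, a kinase that restrains CDK1, 6.04-fold higher. ATR, the kinase upstream of CHEK1, had a log2 ratio of 0.38 and was chosen after its value was seen.

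Among the regulators, E2F8, an E2F that represses transcription, was 13.4-fold higher, at 60.2 against 4.50 CPM, and MYBL2, which drives late cell cycle genes, 9.35-fold, at 183 against 19.6 CPM. In the E2F and pocket protein list 7 of 13 members were higher, and E2F5, an E2F of quiescent and differentiating cells, was the member that was lower (log2 -1.03). RBL1 (p107) was 5.40-fold higher, and its paralog RBL2 (p130) had a log2 ratio of 0.07. Of the cyclin list, 11 of 20 were higher and none lower. CCNE2, the cyclin E that opens S phase, lay under 5 CPM over all kept cells, with 15.9 CPM in S-score cells and 0.388 CPM in low-score cells. CCND1, the cyclin D1 of G1, had 296 against 369 CPM (log2 -0.32). E2F5, RBL2 and CCND1 were chosen after their values were seen. FBXO5, the inhibitor of the APC/C ubiquitin ligase known as EMI1, was 7.81-fold higher, and CDK1 5.28-fold, at 335 against 63.5 CPM.

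**Figure D3:**
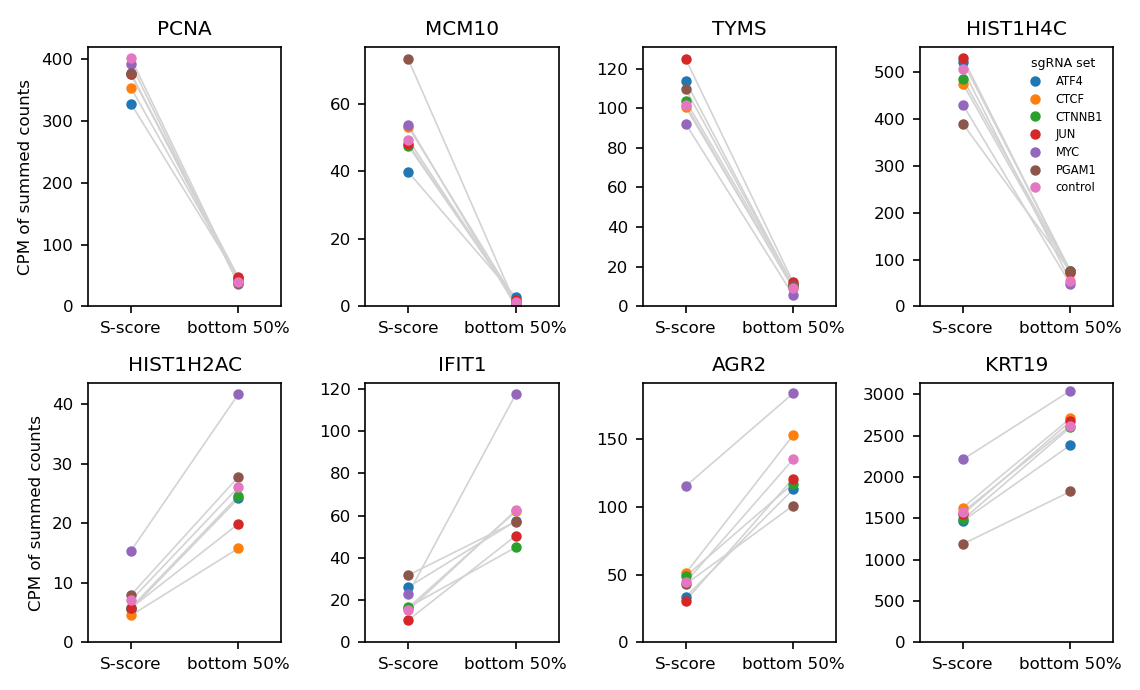
CPM of 8 genes in S-score cells (left) and low-score cells (right) within each of the 7 sgRNA sets, 1 point per set, with counts summed over the cells of the set and lines joining the same set. PCNA, MCM10, TYMS and HIST1H4C are higher in S-score cells of every set, and HIST1H2AC, IFIT1, AGR2 and KRT19 are lower in every set. The point standing apart on the right for IFIT1 and HIST1H2AC is the MYC set, which has 54 low-score cells and 10 S-score cells.

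Genes of G2 and mitosis were partly shared. Of 53 compared members of the G2/M list 40 were higher in S-score cells, none was lower, and the median log2 ratio was 1.54. The high ones included MKI67, a proliferation marker (6.72-fold), KIF11, a spindle motor (46.7 against 8.48 CPM), and HJURP, which places centromeric histone (5.67-fold, with overlap between the sets). CCNB1, the cyclin that starts mitosis, had 70.6 CPM in S-score cells and 75.8 CPM in low-score cells, PLK1, a mitotic kinase, 21.1 and 19.0 CPM, and CDC20, the activator of anaphase, 38.4 and 38.3 CPM. Set against all other kept cells in place of the low-score cells, the G2/M list had a median of 0.50, with 22 members higher and 4 lower. Only 53 S-score cells (5.22%, exact interval 3.94 to 6.77%) were in the top 10% of cells by the share of the G2/M list, compared with 735 of the cells between (18.1%) and 227 low-score cells (4.48%). Those 227 low-score cells had 573 CPM of CCNB1, 194 of PLK1 and 257 of CDC20. The other 4844 low-score cells had 47.3, 8.97 and 25.8 CPM. With the top 10% by G2/M share left out of both groups, 46 of the 53 members were higher, none was lower, and the median log2 ratio was 2.15.

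Along the score the gene groups peaked at different places. From the cells with a score of 0 to the top 5%, the origin licensing list was higher at each of the 8 steps than at the one before, with 250.1, 376, 425, 566, 691, 897, 1140 and 1409 CPM in sum. MCM10 followed the same order, with 1.11 CPM at a score of 0 and 62.7 CPM in the top 5%. CCNE2 stayed at 0.370 to 0.396 CPM up to the 60th percentile, and had 21.0 CPM in the top 5%. CCNB1 and PLK1 had their peak before the top. CCNB1 had 49.8, 131, 174, 217, 184, 126, 80.9 and 60.03 CPM along the same steps, highest between the 60th and 70th percentile, and PLK1 had 64.6 CPM there against 17.4 CPM in the top 5%. The G2/M list in sum was highest between the 70th and 80th percentile, at 5648 CPM, against 4843 CPM in the top 5%, whereas MKI67 was highest in the top 5%, at 172.9 CPM. The share of cells with sgRNAs of 2 or more targets was 6.60% at a score of 0, 12.9% in the cells above 0 up to the median, 14.7, 13.1, 16.6 and 10.1% in the next 4 steps, and 7.50 and 4.13% in the top ones.

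**Figure D4:**
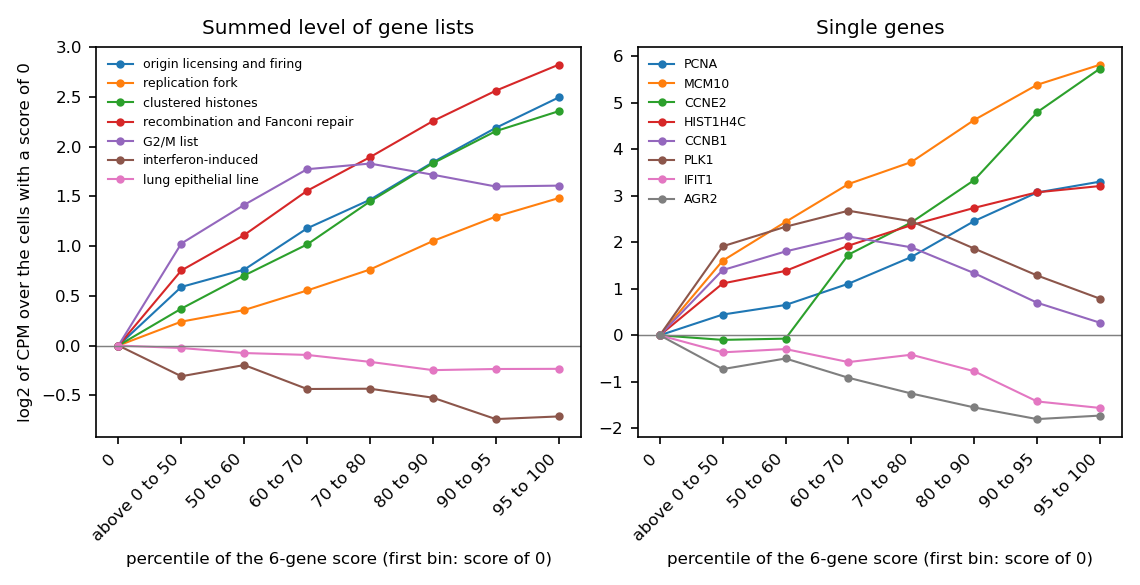
Log2 of CPM relative to the 3803 cells with a score of 0, for summed gene lists (left) and single genes (right), in 8 steps of the 6-gene score from low to high. Lists and genes of replication keep rising to the top step, CCNB1 and PLK1 peak between the 60th and 70th percentile, and the interferon-induced and epithelial lists and IFIT1 and AGR2 decline.

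S-score cells also differed among themselves. They were ordered by their share of the G2/M list, a measure the score did not use, into 339 cells with the lowest share, 338 in the middle and 338 with the highest. Some genes of the G1/S border were lower toward the high end and others were not. MCM5 had 55.4, 41.4 and 34.4 CPM along this order, UNG 32.2, 21.8 and 17.3 CPM, DTL, which marks the licensing factor CDT1 for destruction, 37.6, 24.6 and 17.1 CPM, and E2F1, the founding E2F, 39.5, 33.6 and 26.0 CPM. CCNE2 had 16.7, 15.0 and 16.1 CPM, CDC6 41.6, 40.2 and 40.3 CPM, and E2F8 50.8, 66.0 and 63.5 CPM. RRM2 was higher toward the high end, with 126, 175 and 217 CPM, as were TYMS with 87.4, 108 and 145 CPM, ESCO2 with 34.3, 54.6 and 59.2 CPM, and the clustered histones in sum with 674, 966 and 1176 CPM. Origin licensing as a whole (1294, 1268 and 1257 CPM) and the 6-gene score itself (medians of 767, 827 and 824 CPM) stayed close. These are counts of 1 library with no replicate, and the genes named were chosen after their values were seen.

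Of the lists compared, the interferon-induced one had the lowest median. Of the 14 interferon-induced genes 10 were at least 1.5-fold lower, 1 (OAS3) was higher, and the median log2 ratio was -0.75. IFIT1, which binds foreign RNA ends, had 10.6, 16.7 and 31.8 CPM in S-score cells across the 7 sets (lowest, median and highest), against 44.98, 57.4 and 117 CPM in low-score cells. It was 2.60-fold lower (log2 -1.38, interval -1.55 to -1.22), with no overlap. IFI44L was 2.57-fold lower and OAS1, a sensor of double-stranded RNA, 2.08-fold, both lower in 7 of 7 sets but with overlapping levels. With all cells thinned to 5000 UMIs before scoring, 7 of the 14 were lower, with a median of -0.64.

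Among secreted and surface products of the epithelium, AGR2, a disulfide isomerase of mucous secretion, had 41.9 CPM in S-score cells and 124 CPM in low-score cells (2.96-fold lower), lower in 7 of 7 sets though with overlap between them. IGFBP3, which binds insulin-like growth factors, was 3.18-fold lower, at 11.9 against 37.9 CPM, in 6 of 7 sets. In the list of surface and secreted differentiation genes 3 of 11 were lower and none higher. In the epithelial list 4 of 10 were lower, CLDN4, a tight junction protein (2.12-fold), ELF3, an epithelial transcription factor (1.72-fold), KRT19 (1.70-fold) and MUC1, a mucin (1.52-fold). KRT8, KRT18, EPCAM and EGFR were within 1.5-fold. CAPS, a calcium-binding phosphoprotein, was 2.68-fold lower and CLIC3, an intracellular chloride channel protein, 2.76-fold, both in 7 of 7 sets.

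The lists of growth and stress were mostly within 1.5-fold. Of 82 cytosolic ribosomal protein genes 1 (RPL39L) was higher and the median log2 ratio was -0.12, and of the 13 mitochondrially encoded genes 1 (MT-ND6) was higher, with a median of -0.03 that turned to 0.03 against all other cells and 0.11 in cells with at most 10% mitochondrial UMIs. Ribosome biogenesis had 3 of 27 higher (median 0.22), the ATF4 and stress response targets 3 of 22 (0.20), cholesterol synthesis 1 of 14 (-0.02, turning to 0.01 in the top 5% of the score) and hypoxia none, with 2 of 10 lower (-0.35). In the cells of control sgRNAs alone 6 of 10 hypoxia genes were lower, with a median of -0.70, and 4 of 11 were lower when thinned or with at most 10% mitochondrial UMIs. The p53 targets were mixed, with 5 of 15 higher and 1 lower. DDB2, a sensor of UV damage, was 2.83-fold higher, GDF15, a stress cytokine, 2.08-fold higher, and PHLDA3, an inhibitor of AKT, 1.68-fold lower. Of 10 NF-kB targets 4 were higher, with CXCL8 (interleukin-8) at 173 against 89.3 CPM in 6 of 7 sets. Immediate early genes had 3 of 13 higher, and MYC was the member that was lower, at 54.6 against 86.2 CPM (1.58-fold) in 7 of 7 sets.

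The sgRNAs were not used by the rule, so the share of S-score cells could be compared between target and control sgRNAs, which asks whether a target changes how many cells are in this state. No difference passed. The share was 10.5 ± 4.79% (SD over sgRNAs) with ATF4, 10.1 ± 2.74% with CTCF, 10.8 ± 1.75% with CTNNB1 and 8.62 ± 3.51% with JUN sgRNAs (n = 6 each). It was 13.4 ± 5.39% with PGAM1 (n = 4) and 13.2 ± 6.42% with MYC sgRNAs (n = 2), against 8.94 ± 2.09% with controls (n = 4). The exact permutation test over sgRNAs, two-sided, gave unadjusted p of 0.61 for ATF4, 0.505 for CTCF, 0.162 for CTNNB1, 0.895 for JUN, 0.257 for PGAM1 and 0.4 for MYC, and adjusted p between 0.731 and 0.895 over the 6 targets. The smallest p this design allows is 0.00952 with 6 sgRNAs, 0.0286 with 4 and 0.133 with 2, so the MYC comparison cannot pass. The single sgRNAs with at least 20 cells ranged from 2.94% (JUN sgRNA 6) to 18.9% (PGAM1 sgRNA 1). The other two MYC sgRNAs, with 10 and 16 cells, had 0 S-score cells and are not in the mean. All sgRNAs came from 1 culture, so p-values here and below measure only the spread between sgRNAs.

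**Figure D5:**
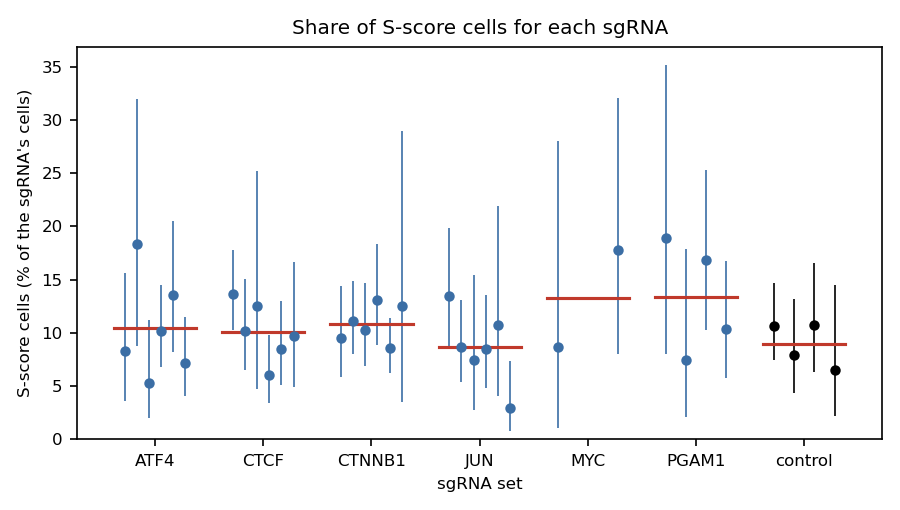
Share of S-score cells among the cells of each sgRNA with at least 20 cells (in percent, points with exact 95% binomial intervals), by target set with the controls last. Red bars are set means, from 8.62% (JUN) to 13.4% (PGAM1) for target sets and 8.94% for controls, and the points of every target set overlap those of the controls.

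Within S-score cells, each target was compared with controls on counts summed per sgRNA, using sgRNAs with at least 5 S-score cells and edgeR's quasi-likelihood test with Benjamini-Hochberg adjustment over 6166 genes. Few genes passed an adjusted p of 0.05.

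Of the 6 target transcripts in S-score cells, PGAM1 fell with its own sgRNAs, and the other 5 did not pass. PGAM1 averaged 79.4 ± 45.3 CPM (SD, n = 3) with its sgRNAs against 226 ± 17.6 CPM with controls (n = 4), and ATF4 224 ± 60.4 CPM (n = 6) against 341 ± 26.9 CPM, a log2 fold change of -0.58 ± 0.14 (SE; edgeR adjusted p = 0.0763). CTNNB1, which encodes beta-catenin, had 16.8 ± 6.58 CPM (n = 5) with its sgRNAs against 40.1 ± 3.56 CPM with controls, without overlap (log2 -1.14 ± 0.34, edgeR adjusted p = 0.996). CTCF, the insulator protein of chromatin loops, had 40.1 ± 19.9 against 37.3 ± 16.4 CPM, and JUN, an AP-1 subunit, 65.5 ± 32.9 against 61.4 ± 20.5 CPM. MYC had 2 UMIs in the S-score cells of its testable sgRNA, 19.1 CPM, against 59.5 ± 17.2 CPM with controls. All 10 S-score cells of the MYC set together held 6 MYC UMIs, 46.1 CPM, against 52.4 CPM in those of the control set. In low-score cells MYC averaged 108 ± 40.7 CPM with its sgRNAs (n = 4), against 79.4 ± 7.92 CPM with controls (log2 0.54, edgeR adjusted p = 0.591). In low-score cells PGAM1, CTNNB1 and ATF4 fell with their own sgRNAs, whereas CTCF, JUN and MYC did not pass. The log2 fold changes there were -1.60 for PGAM1, -0.998 for CTNNB1 and -0.487 for ATF4 (edgeR adjusted p = 4.36e-15, 0.00128 and 0.000281). In S-score cells of the whole culture CTCF stood at 51.4 CPM against 30.1 CPM in low-score cells, CTNNB1 at 36.8 against 45.2 CPM, and ATF4 at 327 against 355 CPM.

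ATF4 is a transcription factor that turns on amino acid synthesis under stress. With ATF4 sgRNAs (6 sgRNAs, 82 S-score cells, against 4 controls with 67) 5 genes fell and none rose, 0.0811% of the genes tested, and DESeq2 called 2. S100P, a calcium-binding protein of epithelial cells, had 308, 373 and 497 CPM (lowest, median and highest sgRNA) with ATF4 sgRNAs, against 578, 622 and 688 CPM with controls. The groups did not overlap, and S100P fell by 0.73 ± 0.12 (SE) on the log2 scale (edgeR adjusted p = 9.56e-05, and at most 0.00189 without any 1 control sgRNA). PHGDH, the first enzyme of serine synthesis, fell to 421 ± 34.5 CPM (SD, n = 6), against 615 ± 20.2 CPM with controls (n = 4), that is by 0.56 ± 0.11 on the log2 scale (edgeR adjusted p = 0.00475). HERPUD1, an ER stress gene, fell to 40.0 ± 18.3 CPM, against 99.0 ± 11.8 CPM with controls (log2 -1.16 ± 0.24, edgeR adjusted p = 0.0133). Without control sgRNA 1, which has 32 of the 67 control cells, the adjusted p was 0.073 for PHGDH and 0.191 for HERPUD1. The other two, CCL20 and DHRS2, rested on few cells: 34 control UMIs of CCL20 came from 9 cells, the call ended without control sgRNA 2 (edgeR adjusted p = 0.4), and 84% of the 25 control UMIs of DHRS2 came from 1 cell. Of 21 tested genes in the list of ATF4 and stress response targets 1 fell, PHGDH, and none rose. In this list 20 had a negative log2 fold change and the median was -0.48, against 3008 negative of all 6166 genes and a median of 0.01. The list holds the targeted gene ATF4 itself and PHGDH, and was chosen with earlier results of these data known. These counts therefore only describe the list. No gene of the replication, histone, repair or G2/M lists passed.

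PGAM1 encodes the phosphoglycerate mutase of glycolysis. With PGAM1 sgRNAs (3 sgRNAs, 39 S-score cells) 10 genes passed, 4 higher and 6 lower, 0.162% of those tested, and DESeq2 called 1. PGAM1 itself fell to 27.7, 98.7 and 112 CPM with its 3 sgRNAs, against 210.3 to 242 CPM with the 4 controls, without overlap (log2 -1.54 ± 0.23, edgeR adjusted p = 1.54e-05). It passed with any 1 sgRNA left out, with adjusted p up to 0.0113. FOS, an immediate early transcription factor, fell to 17.6, 27.96 and 33.2 CPM, against a range of 25.5 to 121 CPM with controls, which overlaps (log2 -1.86 ± 0.43, edgeR adjusted p = 0.031). OLFML3, a secreted matrix protein, SFRP1, a secreted Wnt antagonist, MIR205HG, a host RNA of a microRNA, and MT-CO2 of cytochrome oxidase fell by 0.98, 1.65, 0.59 and 0.38 on the log2 scale. The genes that rose were PTTG1, known as securin, HMMR, a mitotic spindle gene, HLA-B and CEBPZOS. Of the UMIs behind them in PGAM1 cells, 1 cell gave 39.3% for PTTG1, 26.7% for HMMR and 76.5% for HLA-B. In the top 10% by G2/M share were 4.65% of all 43 S-score cells with PGAM1 sgRNAs and 1.49% of the 67 with controls. Both shares stand for very few cells, and their part in the PTTG1 and HMMR calls was not tested. These 9 calls other than PGAM1 each ended in at least 1 of the 7 fits that leave out 1 sgRNA. The count was 3 when control sgRNA 1 or PGAM1 sgRNA 3 was left out, 5 when control sgRNA 3 was and 21 when PGAM1 sgRNA 1 was.

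The other targets gave 1 call or none. NEAT1, a nuclear long non-coding RNA, rose with CTCF sgRNAs to 1255 ± 550.3 CPM (n = 6), against 683 ± 160.2 CPM with controls (log2 0.79 ± 0.15, edgeR adjusted p = 0.01, 0.0162% of genes). The groups overlapped, and the call ended without control sgRNA 1, 3 or 4 (edgeR adjusted p = 0.0811, 0.223 and 0.0543). CEBPZOS, a small mitochondrial protein encoded beside CEBPZ, was the call with JUN sgRNAs, at 69.8 ± 15.5 CPM (n = 5) against 20.4 ± 14.3 CPM with controls (log2 1.53 ± 0.32, edgeR adjusted p = 0.0437, 0.0162% of genes). It also passed with PGAM1 sgRNAs, which were set against the same 4 controls, and with JUN it ended without any 1 of them (edgeR adjusted p 0.0574 to 0.454). These controls held 24 UMIs of CEBPZOS in S-score cells and ranged from 0 to 33.2 CPM. In low-score cells the same controls ranged from 44.3 to 59.2 CPM. The part of the low control level in both calls was not tested. With CTNNB1 sgRNAs edgeR called 0 genes (237 at an unadjusted p under 0.05) and DESeq2 0 (108), and with the 1 testable MYC sgRNA edgeR called 0 (365) and DESeq2 0 (229). That MYC comparison takes the spread of its single sgRNA from the other groups.

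The last comparison asked whether a target's effect differed between the S-score and the low-score cells of the same sgRNAs, with the sgRNA as a block and 9180 genes in 1 edgeR fit. For ATF4 and MYC no gene passed (435 and 505 at an unadjusted p under 0.05). S100P, PHGDH and PGAM1 had like changes in low-score cells, with log2 fold changes of -0.55, -0.41 and -1.60, and differences between the classes of -0.19, -0.16 and -0.04. The CTNNB1 and ATF4 transcripts, with their own sgRNAs, had differences between the classes of -0.11 and -0.13, which did not pass. The CDK1 transcript gave the call for CTNNB1 (0.0109% of genes), with 310 ± 26.2 CPM against 351 ± 95.1 CPM with controls in S-score cells, and 66.2 ± 11.5 against 27.4 ± 17.8 CPM in low-score cells. The difference of the log2 fold changes was -1.08 ± 0.20 (edgeR adjusted p = 0.00292). With JUN 6 genes passed (0.0654%), among them CDK1 (-1.22), HMGB2 (-0.87), UBE2C (-1.08) and SMC4 (-1.07), which act in late cell cycle. The other two were DHRS2 (-6.93), with 84% of its control UMIs in 1 S-score cell, and CEBPZOS (1.63). In low-score cells these 4 genes, CDK1, HMGB2, UBE2C and SMC4, averaged 66.7, 102, 108 and 45.8 CPM with JUN sgRNAs, against 27.4, 60.7, 48.5 and 26.7 CPM with controls. The top 10% by G2/M share held 4.20 to 5.60% of the low-score cells of the 6 target sets, which have 54 to 761 such cells. It held 2.14% of the 374 low-score cells with controls, again few cells. The part of this share in these differences was not tested. Without control sgRNA 3 or control sgRNA 4 the CDK1 calls ended, with edgeR adjusted p of 0.617 and 0.371 for CTNNB1 and 0.147 and 0.0508 for JUN, and 1 of the 6 genes was called for JUN.

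S100A9, a calcium-binding protein of inflamed epithelium, differed for 2 targets. With PGAM1 sgRNAs it had 1011, 2008 and 3709 CPM in S-score cells, against 523 to 1451 CPM with controls, and 1273 ± 410.4 against 1848 ± 256.8 CPM in low-score cells. The difference of the log2 fold changes was 1.36 ± 0.19 (edgeR adjusted p = 4.45e-08, 0.0109% of genes), and it passed without any 1 sgRNA, with adjusted p up to 0.00788. With CTCF sgRNAs, against the same controls, the difference was 0.81 ± 0.16 (edgeR adjusted p = 0.00341, 0.0109% of genes), and it ended without control sgRNA 4 (edgeR adjusted p = 0.468).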

How the data were processed

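Single PC9 cells were measured with a 10x 3' gene expression library and a capture of sgRNAs. The deposited matrix holds counts (UMIs per gene or sgRNA and cell) which per the file headers the authors made with Cell Ranger 6.1.2; the build was hg38 per the submitters' processing notes. Both libraries share 1 matrix of 10847 barcodes with 136071789 gene UMIs over 36601 genes and 158909 sgRNA UMIs. The filter of 1000 UMIs, 500 genes and 20% mitochondrial UMIs removed 705 barcodes, 522 for their mitochondrial share alone. No doublet caller was run; cells with sgRNAs of 2 or more targets were kept and left out in an alternative.

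UMIs were summed over the cells of a class and divided by its gene UMIs (CPM). Genes with at least 5 CPM over all kept cells were compared, without a test, with exact 95% intervals for the ratio of the 2 sums that cover counting error only. A cell was given to an sgRNA when it held at least 5 UMIs of it and at least 80% of its sgRNA UMIs. Counts were summed per sgRNA and class and tested with edgeR 4.0.16 (quasi-likelihood, limma 3.58.1, R 4.3.3), all targets in 1 fit, and with DESeq2 1.42.0 as an alternative. Shares of S-score cells were taken over sgRNAs with at least 20 cells and tested with an exact permutation test (SciPy 1.17.1). The edgeR steps were tested on simulated data with changes set for ATF4 sgRNAs. Within S-score cells they recovered 37 of 50 genes raised 2-fold and 20 of 50 lowered 2-fold. Of the genes changed 4-fold in the same run they recovered 48 of 50 raised and 39 of 50 lowered. The run gave 4 false calls. For the difference between classes they recovered 77 of 100 genes raised 4-fold and 51 of 100 lowered 4-fold, with 6 false calls. Real changes of these sizes can therefore be missed. Every simulated gene was given the same spread between sgRNAs, and no gene was concentrated in single cells. Some real calls rested largely on 1 cell, so recovery and false calls in the real data can differ from these figures. Genes named by rule are the score genes, the targeted genes, the cell type markers and those the tests called. The rule also took the 24 most increased and 12 most decreased at 10 CPM or more, and up to 4 per list from 29 gene lists. Others, among them OAS3 and EGFR, were chosen after their values were seen. The cells, members and lists were chosen with earlier results of these data known. Of the gene IDs, 24809 matched a RefSeq entry. Promoters came from RefSeq (GRCh38.p14), matched by symbol for 81.1% of the compared genes, and only names, sequences and positions were taken from it. The alternatives were other limits of the score, of mitochondrial share and of CPM, thinning, other scalings, other score genes, other sgRNA assignments, leaving out single sgRNAs, DESeq2, and fits of a target with controls alone. Some genes are not reported here.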

Additional observations from a re-analysis of the deposited data

Results flagged for a closer look

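Of 36 groups of 4 to 10 sgRNAs checked for a single value far from the rest, 2 had one, and chance alone gives about 1 in 20. CCL20 had 3.67 CPM in S-score cells of ATF4 sgRNA 5, which is 1 UMI, whereas the other 5 ATF4 sgRNAs were at 0. CTCF had 12.7 CPM in S-score cells of control sgRNA 4, against 44.3 to 46.9 CPM in the other 3 controls. That sgRNA has 5 S-score cells with 78457 gene UMIs in all, so both values rest on very few counts.

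In 9 pairs of a gene and a target the effect on S-score cells differed from the effect on low-score cells by the test of that difference (edgeR, sgRNA as a block, adjusted p under 0.05). The difference of the log2 fold changes was 0.81 for S100A9 with CTCF and 1.36 for S100A9 with PGAM1, both set against the same 4 controls. It was -1.08 for CDK1 with CTNNB1. With JUN it was -1.22 for CDK1, -0.87 for HMGB2, -1.08 for UBE2C, -1.07 for SMC4, -6.93 for DHRS2 and 1.63 for CEBPZOS. CEBPZOS averaged 69.8 CPM with JUN sgRNAs and 20.4 CPM with controls in S-score cells. Its log2 fold change in low-score cells was -0.095 (edgeR adjusted p = 0.994). Single sgRNAs there ranged from 43.9 to 67.4 CPM with JUN and from 44.3 to 59.2 CPM with controls. The controls in S-score cells, with 24 UMIs and a range of 0 to 33.2 CPM, lay below both ranges. The part of this low control level in the difference was not tested.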

How the results depend on the processing

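All values come from 1 culture, so no fold between the score classes has a replicate, and the tests within S-score cells rest on 5 to 47 such cells per sgRNA, which limits their precision. No paired analysis was possible because target and control sgRNAs share only a number, which is a name and not a shared sample; the fit with the sgRNA as a block was used for the difference between classes. Of 1526 recomputed folds of named genes, 596 moved by more than the counting interval. Changes of direction were counted only for genes past 1.5-fold in the main comparison, and there were none. Genes within 1.5-fold were not counted, and RPL22L1 among them changed. Its log2 ratio was 0.30 in the main comparison, but control cells alone had 270 against 277 CPM. The genes at least 1.5-fold higher and lower, 1113 and 268, became 654 and 169 against all other kept cells, 1725 and 1018 with control cells alone, 1802 and 605 at 1 CPM, 465 and 108 at 20 CPM, and 417 were lower with median-ratio scaling.

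The share differences, in percentage points over controls, changed sign for CTCF (-1.06 with the top 20% of the score, -0.50 with at most 10% mitochondrial UMIs, -1.67 with stricter sgRNA assignment), JUN (0.69 thinned, 0.049 with at most 10% mitochondrial UMIs) and MYC (-0.65 with looser assignment). Single sgRNAs were left out among the 4 controls for every target and among the target's own for PGAM1 and, for the share alone, MYC; those of the targets with 6 sgRNAs were not left out, so the ranges do not cover them. This gave 0.69 to 2.09 for ATF4, 0.33 to 1.72 for CTCF, 1.07 to 2.47 for CTNNB1, -1.15 to 0.25 for JUN, -0.25 to 8.83 for MYC and 2.59 to 6.43 for PGAM1; the cause was not tested.

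Calls within S-score cells became, for ATF4, 2 (DESeq2), 3 (with controls alone), 28 (top 20%) and 15 (looser assignment); for CTCF 0 (DESeq2, controls alone, top 20%) and 7 (no CPM filter); for CTNNB1 1 (no filter); for JUN 0 (DESeq2, top 20%, looser assignment), 4 (no filter) and 3 (controls alone); for MYC 1 (no filter, controls alone); and for PGAM1 1 (DESeq2, controls alone) and 2 (top 20%). In the same leave-out fits they were 2 to 7 for ATF4, 0 to 1 for CTCF, 0 for CTNNB1, JUN and MYC, and 3 to 21 for PGAM1. The targets' own changes turned sign with the top 20% for CTCF (-0.11) and JUN (-0.094). ATF4 itself passed there (-0.48, edgeR adjusted p = 0.0155) and with looser assignment (-0.66, edgeR adjusted p = 0.000912).

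Calls of a difference between the classes became 2 (no filter) and 4 (top 20%) for ATF4, 0 (no sgRNA block, top 20%) and 4 (no filter) for CTCF, 0 (no block) and 2 (top 20%) for CTNNB1, 2 (no block) and 3 (top 20%) for JUN, 1 (no filter) for MYC, and 2 (no block) and 4 (no filter) for PGAM1. In the leave-out fits they were 0 to 2 for ATF4 and CTNNB1, 0 to 4 for CTCF, 1 to 6 for JUN, 0 to 1 for MYC and 1 to 4 for PGAM1. Differences of the targets' own transcripts, near 0, turned sign for ATF4 (0.0075), CTNNB1 (0.0039) and JUN (-0.040) with the top 20% and for PGAM1 (0.026) with no block and no filter, and ranged in the leave-out fits from -0.14 to 0.036 for CTCF and from -0.84 to 0.56 for PGAM1.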
